A study of Mus musculus with 6 samples.

Results

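Tuft cells are rare chemosensory cells of the intestinal epithelium that carry a bundle of long apical microvilli. In mice they are known to sense luminal metabolites of protists and worms through a taste-like cascade, in which a G protein and phospholipase C release calcium and the calcium opens the cation channel Trpm5. Activated tuft cells release interleukin-25 and cysteinyl leukotrienes, lipid mediators that are made from arachidonic acid and act on innate lymphoid cells. The 9 genes described here were chosen by name as genes of this cell type: *Dclk1*, *Trpm5*, *Rgs13*, *Sh2d6*, *Avil*, *Pou2f3*, *Alox5ap*, *Ltc4s* and *Lrmp*. All 9 had a row in the count tables, which together list 19178 genes.

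Crypt cells of the small intestine came straight from untreated C57BL6 mice, 10 weeks of age, and were sequenced by Drop-seq, which captures single cells in droplets and tags the polyadenylated RNA of each cell with a cell barcode and each molecule with a unique molecular identifier (UMI). Mice with an epithelial knockout of *Ptger4*, a receptor for prostaglandin E2, were set against mice with the floxed *Ptger4* gene. Each genotype has 3 collections of droplets from 2 biological replicates. The labels do not say which collections share a biological replicate, and their codes were read as collections 1 and 2 belonging to replicate 1 and collection 3 to replicate 2. The driver of the deletion, the deleted part of the gene and the number and sex of the mice are in no source used here.

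The filter asked for 300 genes or more and 25% or less mitochondrial counts per barcode, and left 754, 703 and 981 barcodes in the knockout collections and 1053, 473 and 926 in the flox collections, 4890 of 13191 in all. Kept barcodes had a median of 1274.5 counts, and the sum of kept counts per collection was between 1028412 and 3020164. *Ptger4* was at 16.1, 18.9 and 24.9 CPM, counts per 1000000 counts, in the epithelial cells of the knockout collections and at 12.4, 11.5 and 15.4 CPM in those of the flox collections, so the reads did not show the deletion. A 3′ read that lies outside the deleted part cannot check it, and every direction given below is between collections as they are labelled. Collections 3 of both genotypes differed from the others in *Xist*, the RNA that silences 1 X chromosome in female cells, with 1584 UMIs in knockout collection 3 and 1457 in flox collection 3, against 0 and 11 in knockout collections 1 and 2 and 1 and 0 in flox collections 1 and 2. Sex and biological replicate therefore cannot be told apart. Collections also shared cell barcodes: 133 kept barcodes (2.72%) occurred in more than 1 collection, and they held 12.5% of the kept counts and 69 of the 761 UMIs of the 9 genes. None of the shared barcodes was in the tuft-like cluster described next.

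Clustering with the 9 genes left out of the variable genes gave 15 clusters, and 1 of them, with 42 barcodes, was named tuft-like from other genes. It was enriched in 16 of 23 measured tuft markers outside the 9 genes. Among these, *Gng13*, a G protein gamma subunit of the taste cascade, was at 446 CPM in tuft-like barcodes and at 0.352 CPM in all other kept barcodes. The kinase gene *Bmx* was at 612 and 0.527 CPM in the same order. The tuft markers *Gfi1b*, a transcriptional repressor, and *Gnb3*, a G protein beta subunit, had 0 UMIs in the 42 barcodes, and *Siglecf* is not in the tables. Markers of immune lineages were mostly at 0 in tuft-like barcodes, *Tyrobp*, *Fcer1g*, *Cd68*, *Lyz2* and *Fcer1a* among them. Of the measured T or NK markers 12 of 15 had no UMI there, and the list summed to 165 CPM in tuft-like and 630 CPM in other kept barcodes. The pan-leukocyte gene *Ptprc* of this list was higher in tuft-like barcodes, with 7 UMIs at 116 CPM, against 40.7 CPM in the others. Of the B or plasma markers 10 of 11 were at 0, with sums of 16.5 and 385 CPM in the same order. The myeloid list had 6 of 9 markers at 0 and sums of 66.1 and 45.3 CPM, and the mast cell list 5 of 6 at 0 and sums of 182 and 10.2 CPM, where *Kit*, a receptor of mast cells and other cells, gave all 11 tuft-like UMIs. The tuft-like barcodes made up 0.859% of kept barcodes and had a median of 1015.5 counts, against 1275.5 counts in the other kept barcodes.

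The 42 tuft-like barcodes held 368 of the 761 UMIs of the 9 genes, or 48.4%, with 0.529% of all kept counts. The percentage was 33.3, 45.7 and 63.6% in the knockout collections and 43.5, 27.1 and 46.3% in the flox collections. It varied by 12.6 percentage points between collections (SD, n = 6). Each of the 9 genes had its highest level in the tuft-like class, but the class in second place and the distance to it differed from gene to gene. Because the cells that were clustered are the cells that are described, these values carry no test. CPM values are UMIs at the 3′ end and are compared here between classes of cells, not between genes.

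**Figure D1:**
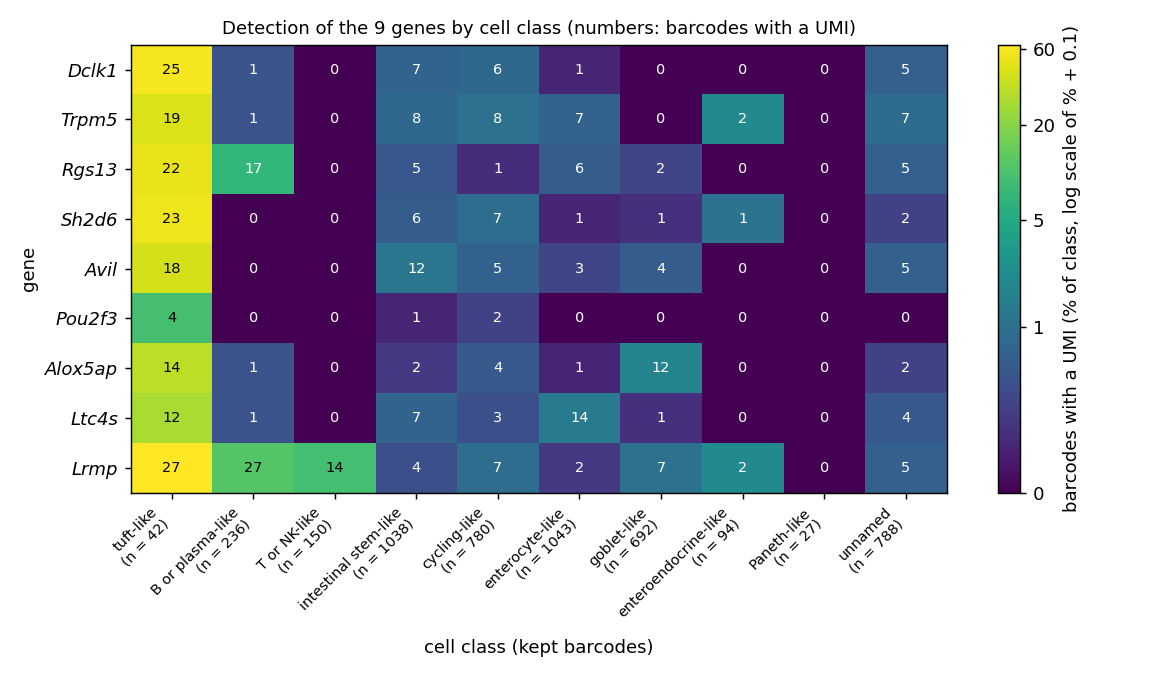
Heat map of the 9 genes (rows) against the classes of kept barcodes (columns); the colour is the percentage of barcodes with at least 1 UMI, on a log scale of the percentage plus 0.1, and the printed number is the count of such barcodes. The tuft-like column is bright for all genes except *Pou2f3* (4 of 42 barcodes), *Rgs13* and *Lrmp* are also seen in 17 and 27 B or plasma-like barcodes, and *Lrmp* alone in T or NK-like barcodes (14 of 150).

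*Dclk1*, a microtubule-associated kinase in common use as a marker of tuft cells, had 56 of its 111 UMIs in the tuft-like class, at 926 CPM, and the cycling-like class was next at 14.4 CPM. It was detected in 25 of 42 tuft-like barcodes (59.5%, exact binomial 95% interval 43.3 to 74.4%) and in 20 of the 4848 other kept barcodes. No UMI of *Dclk1* was found in 692 goblet-like barcodes, which had a higher median depth (1732 counts) than the tuft-like ones. A count of 0 there allows a share of up to 0.434% of barcodes with a UMI, and sets no limit on cells that express the gene below detection. Outside the tuft-like class the UMIs were concentrated: 18 of the 26 UMIs in cycling-like cells came from 1 barcode and 9 of the 20 UMIs in stem-like cells from another. Intervals of this kind cover counting error only.

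*Trpm5*, the calcium-gated cation channel of the cascade, had 30 of its 68 UMIs in the tuft-like class, at 496 CPM, and was detected in 19 of the 42 barcodes. Its second class was enteroendocrine-like at 11.3 CPM, which rested on 2 UMIs in 94 barcodes. The remaining *Trpm5* UMIs were spread over many classes, mostly as single UMIs: 33 other barcodes had the gene and 4 of these had more than 1 UMI. *Sh2d6*, which encodes an adaptor-like protein with an SH2 domain, was detected in 23 of 42 tuft-like barcodes at 678 CPM, against 8.28 CPM in the cycling-like class. *Avil*, which encodes advillin, an actin-binding protein of the villin family, was detected in 18 tuft-like barcodes at 364 CPM and in 12 stem-like barcodes at 5.77 CPM. Neither *Sh2d6* nor *Avil* had a UMI in the 386 immune-like barcodes.

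*Pou2f3*, the POU-domain transcription factor required for tuft cells in mice, was the least detected of the 9 genes, with 9 UMIs in all kept cells. Of these, 6 were in 4 tuft-like barcodes, 2 in cycling-like and 1 in stem-like barcodes. All 4 tuft-like barcodes with *Pou2f3* also had *Alox5ap* and *Lrmp*. At this depth the other tuft-like barcodes cannot be called negative for it.

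A pair of genes of the set acts in the leukotriene pathway. *Alox5ap* encodes FLAP, the membrane protein that presents arachidonic acid to 5-lipoxygenase, and had 27 of its 50 UMIs in 14 tuft-like barcodes, at 446 CPM. The class in second place was goblet-like at 5.63 CPM, with 12 barcodes of 1 UMI each, and 10 of these 12 barcodes were in flox collection 3. After every barcode was thinned to 500 UMIs, 4 of 676 goblet-like barcodes still had *Alox5ap*. *Ltc4s*, the synthase that joins glutathione to leukotriene A4 to make leukotriene C4, had the lowest share of UMIs in the tuft-like class of the 9. Of its 52 UMIs, 15 (28.8%) were in 12 tuft-like barcodes, at 248 CPM. By the fold in CPM over the class in second place, *Lrmp* (7.41) and *Rgs13* (7.97) were lower than *Ltc4s* (28.8).

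Enterocyte-like barcodes had 18 UMIs of *Ltc4s*, against 15 in tuft-like barcodes. All 18 were in the enterocyte-like cluster whose leading genes are *Apoa1*, *Fabp1* and *Apoa4*, genes of lipid absorption, in 14 of its 528 barcodes, and none was in the 515 barcodes of the other enterocyte-like cluster, led by *Reg3g*, *Fabp6* and *Reg3b*. These 2 clusters had medians of 1776.5 and 864 counts. By collection, the enterocyte-like UMIs of *Ltc4s* were 12, 3 and 0 in the knockout collections and 2, 1 and 0 in the flox collections. The level in enterocyte-like cells was 8.60 CPM, and goblet-like cells, with a median of 1732 counts, had 1 UMI in 692 barcodes. Thinned to 500 UMIs, 1 of 986 enterocyte-like, 1 of 676 goblet-like and 4 of 40 tuft-like barcodes had *Ltc4s*. Barcodes with under 100 counts, which no class holds, had 1 UMI of *Ltc4s* in 234099 counts, and the 9 genes together were at 55.5 CPM there, against 34.5 CPM in kept barcodes outside the tuft-like class. The source of scattered UMIs outside that class was not tested, and they are not read as expression.

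The rest of the eicosanoid pathway was read from a list of 18 synthesis genes, 16 of them in the tables. *Alox5*, the 5-lipoxygenase that works with FLAP, had 9 UMIs in 8 tuft-like barcodes and 7 UMIs in all 4848 others. *Ptgs1*, cyclooxygenase 1, had 10 and 4 UMIs, and *Hpgds*, the prostaglandin D2 synthase of haematopoietic cells, 23 and 43 UMIs, in tuft-like and other barcodes. *Pla2g4a*, the phospholipase that frees arachidonic acid, was broader, with 19 and 228 UMIs. Of the synthesis list, 4 of 16 genes in the tables were at least 5-fold higher in CPM in tuft-like barcodes and had at least 4 UMIs there. None of the 7 measured leukotriene and prostanoid receptor genes met the same condition, and *Ptger4* itself had 2 UMIs in tuft-like barcodes and 191 in the others.

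The taste-like cascade was covered in part. Of 15 listed chemosensory genes in the tables, 5 met the condition: *Gng13*, *Plcb2*, *Itpr2*, *Ffar3* and *Vmn2r26*. A gene with fewer than 3 UMIs in the other barcodes was read against a floor of 3 UMIs there. *Itpr2*, an inositol trisphosphate receptor, had 35 UMIs in tuft-like barcodes and 151 in the others. *Plcb2*, the phospholipase of the taste cascade, had 29 UMIs in 21 tuft-like barcodes and 43 in the others. *Vmn2r26*, a vomeronasal receptor gene, had 6 UMIs in tuft-like barcodes and 1 in all others, and *Gnat3*, the taste G protein alpha subunit gustducin, had 2 and 2. Among 8 measured transcription factor genes *Hmx3* and *Hmx2*, homeobox genes, had 15 and 4 UMIs in tuft-like barcodes and 2 and 0 elsewhere, and *Spib*, an Ets factor shared with B cells, had 7 and 23. Of 15 listed genes of immune-type signalling, 10 met the condition, among them *Matk* (67 and 38 UMIs) and *Vav1* (18 and 64 UMIs).

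The upstream sequences of *Avil* and *Rgs13* are shown for these reasons: Pou2f3 belongs to a family known to bind the octamer motif, *Avil* is the 1 gene of the 6 searched whose promoter window holds a shorter part of it, and *Rgs13* is the gene of the set that is also high in B-like cells. The motif searched was ATGCAAA on either strand, a part of the octamer ATGCAAAT. Windows of 300 bases (250 before and 50 after a start site, from RefSeq, GRCm38.p6) were at hand for 6 of the 9 genes, and 1520 of 32851 windows of all genes (4.63%) held the short motif. The full octamer was in 570 windows (1.74%), none of them of these 6 genes. Capitals mark the short motif, which occurred in the *Avil* window once on each strand, with first bases 115 and 15 bases before the start site, and did not occur in the *Rgs13* window. The 250 bases before the start are given, for *Avil* at chr10:127000459-127000708 on the plus strand and for *Rgs13* at chr1:144177373-144177622 on the minus strand. A match in these letters is a description and not a binding site.
Avil: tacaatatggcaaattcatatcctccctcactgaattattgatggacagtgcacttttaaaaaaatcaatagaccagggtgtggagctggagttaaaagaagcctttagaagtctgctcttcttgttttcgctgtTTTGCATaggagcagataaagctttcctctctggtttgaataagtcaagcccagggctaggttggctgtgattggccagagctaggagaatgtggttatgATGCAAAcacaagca
Rgs13: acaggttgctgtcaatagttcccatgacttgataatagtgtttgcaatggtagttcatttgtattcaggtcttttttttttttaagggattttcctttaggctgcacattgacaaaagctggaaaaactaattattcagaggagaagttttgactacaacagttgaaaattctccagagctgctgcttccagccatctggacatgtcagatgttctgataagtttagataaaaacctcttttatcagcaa

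*Avil* spans chr10:127000709-127020994 and *Rgs13* chr1:144138654-144177372 in the GENCODE annotation of GRCm38. Exons of 6 of the 9 genes overlap exons of other genes on the opposite strand: *Trpm5*, *Avil* and *Lrmp* those of *Tssc4*, *Tsfm* and *Casc1*, and *Dclk1*, *Alox5ap* and *Ltc4s* those of the annotated genes *Gm21954* and *Gm42609*, *Gm19719* and *Gm26542*. No source used here says whether the counting used strand, so UMIs of these 6 genes may include some of the partner gene.

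The 9 genes were found together in single barcodes far more in the tuft-like class than elsewhere. A tuft-like barcode had a median of 4 of the 9 genes, 36 of 42 (85.7%) had at least 2, 16 had at least 5, and 1 barcode of flox collection 3, the deepest of the class at 8055 counts, had all 9. Only 3 tuft-like barcodes had none. Among the 4848 other kept barcodes, 31 (0.639%) had at least 2 of the genes. Most single detections lay outside the class: 241 kept barcodes had at least 1 of the 9 genes and 39 of them were tuft-like, whereas 44 had at least 3 and 29 of those (65.9%) were tuft-like.

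**Figure D2:**
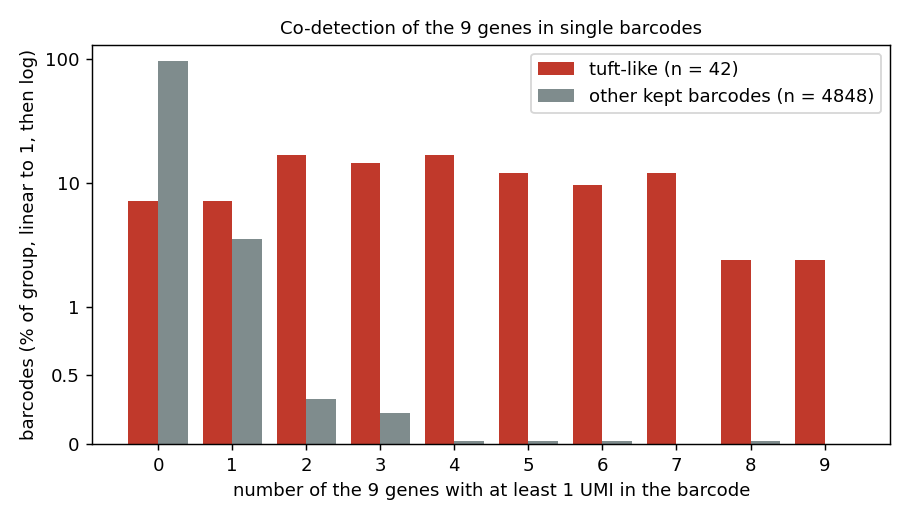
Number of the 9 genes with at least 1 UMI in a barcode (x axis) against the percentage of barcodes (y axis, linear to 1% and logarithmic above), for the 42 tuft-like and the 4848 other kept barcodes. Tuft-like barcodes are spread from 0 to 9 genes with a median of 4, whereas most other barcodes have none of the genes.

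Over all kept barcodes pairs of the genes were found together. *Sh2d6* and *Lrmp* were found together in 26 of the 41 kept barcodes with *Sh2d6* (63.4%), and *Dclk1* and *Lrmp* in 24 of the 45 barcodes with *Dclk1* (53.3%). These pooled values include which barcodes are tuft-like. Within the 42 tuft-like barcodes *Sh2d6* and *Lrmp* were together in 19, against 14.8 from the product of their shares, *Dclk1* and *Lrmp* in 18, against 16.1, and *Alox5ap* and *Ltc4s* in 7, against 4. Below the product were *Trpm5* and *Avil* (7, against 8.14), *Trpm5* and *Pou2f3* (1, against 1.81) and *Dclk1* and *Ltc4s* (7, against 7.14). The other pairs were above it, some of them only slightly, as *Dclk1* and *Avil* (11, against 10.7). *Dclk1* was the gene least often found alone, in 7 of 45 barcodes (15.6%), and *Ltc4s* the gene most often found alone, in 25 of 42 (59.5%). Over the 4890 kept barcodes, the correlation of a gene's level, log of 1 plus counts per 10000, with the number of the other 8 genes detected was highest for *Dclk1* (Pearson r = 0.56) and *Sh2d6* (0.56) and lowest for *Pou2f3* (0.22) and *Ltc4s* (0.33). Among epithelial barcodes alone the order at the top changed, with *Lrmp* at 0.668, *Rgs13* at 0.589, *Dclk1* at 0.585 and *Sh2d6* at 0.583. Genes of a barcode share its depth, and these values are descriptive.

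**Figure D3:**
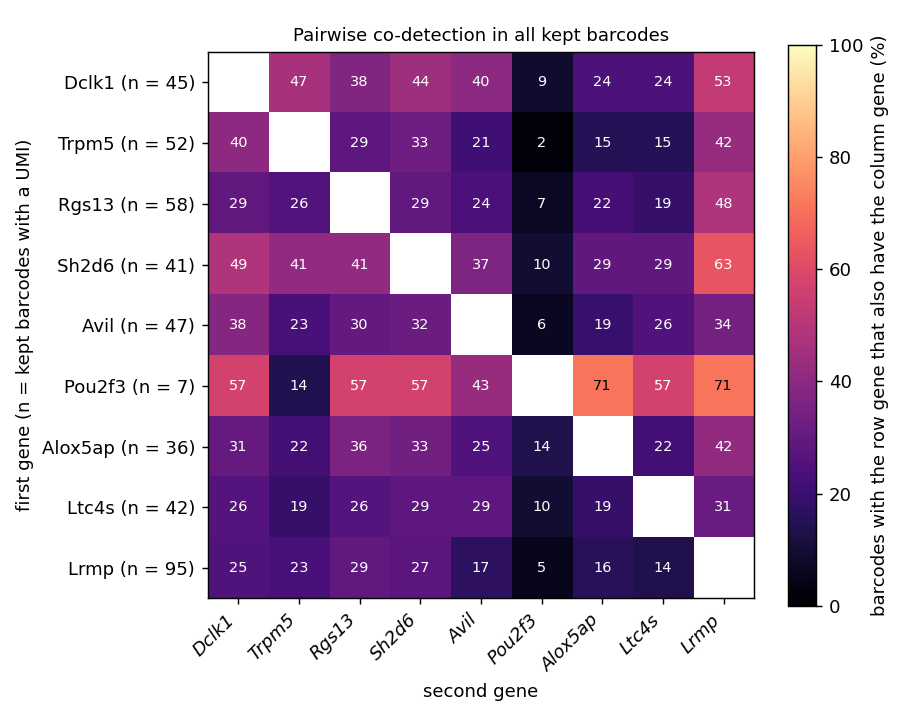
Pairwise co-detection over all kept barcodes: each cell of the grid gives the percentage of barcodes with the row gene that also had the column gene, and n is the number of barcodes with the row gene. The *Lrmp* column is high for most rows (63% of *Sh2d6* barcodes), whereas the *Lrmp* row is low (27% of *Lrmp* barcodes had *Sh2d6*).

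The 15 barcodes with at least 3 of the genes outside the tuft-like class were deeper than most, with a median of 3124 counts and a range of 414 to 20389. The deepest was a stem-like barcode of flox collection 3 with 8 of the 9 genes, including 13 UMIs of *Rgs13*, 11 of *Lrmp* and 9 of *Dclk1*, together with 29 UMIs of the proliferation gene *Mki67*. A cycling-like barcode of knockout collection 3 had 13115 counts, 18 UMIs of *Dclk1* and 6 of the genes. That barcode also occurred in another collection, as did a stem-like barcode of flox collection 3 with 4 UMIs of *Dclk1*. Doublets were not removed, and the part of doublets in these barcodes was not tested. When barcodes were thinned to 500 UMIs and shallower ones left out, 91.7% of barcodes with at least 3 of the genes were tuft-like.

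Immune-like cells shared *Rgs13* and *Lrmp* and little else. *Rgs13*, a regulator of G protein signalling known in mice from germinal centre B cells and mast cells, was at 1752 CPM in tuft-like and 220 CPM in B or plasma-like cells, 7.97-fold apart. It had 106 UMIs in 22 of 42 tuft-like barcodes, 50 UMIs in 17 of 236 B or plasma-like barcodes (7.20%), and 0 UMIs in 150 T or NK-like barcodes, where the median depth was 780 counts against 679 in the B or plasma-like class. *Lrmp*, a membrane protein of the endoplasmic reticulum known from lymphocytes, was at 1074 CPM in tuft-like, 145 CPM in B or plasma-like and 135 CPM in T or NK-like cells. The exact counting intervals of *Lrmp* in these 2 immune-like classes overlapped. The other 7 genes had 4 UMIs in all 386 immune-like barcodes, 1 each of *Dclk1*, *Trpm5*, *Alox5ap* and *Ltc4s*.

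Together, B or plasma-like and T or NK-like barcodes held 52 of the 156 UMIs of *Lrmp*, against 65 in the tuft-like class. No immune-like barcode had 3 or more of the 9 genes, and the 8 that had 2 were B or plasma-like. By collection, B or plasma-like cells had 5, 0 and 9 UMIs of *Rgs13* in knockout and 22, 9 and 5 in flox, in 48, 40 and 20 knockout and 71, 47 and 10 flox barcodes. The 9 UMIs of knockout collection 3 came from 1 barcode.

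The genes beside *Rgs13* differed in part between the 2 classes. This set of genes was chosen after values had been seen and carries no test. Of the 17 B or plasma-like barcodes with *Rgs13*, 8 had *Gcsam*, a germinal centre protein, 5 had *S1pr2*, a sphingosine phosphate receptor of germinal centre B cells, and all 17 had *Ms4a1*, which encodes CD20. Of the 219 B or plasma-like barcodes without *Rgs13*, 1 had *Gcsam*, 1 had *S1pr2* and 138 had *Ms4a1*. *Bcl6*, a transcription factor of germinal centre B cells, was in 1 of the 17 and in 4 of the 219, at 23.6 and 27.0 CPM. *Fas*, a death receptor, was in 2 of the 17 (11.8%) and in 2 of the 219 (0.913%), at 70.9 and 10.8 CPM. The barcodes with *Rgs13* were also deeper, at a median of 2170 against 655 counts. None of the 17 had a UMI of *Bmx*, *Gng13*, *Sh2d6* or *Dclk1*. Of the 22 tuft-like barcodes with *Rgs13*, 14 had *Bmx*, 16 had *Sh2d6*, and none had *Gcsam*, *S1pr2*, *Ms4a1*, *Igkc* or *Igha*. Other genes were found beside *Rgs13* in both classes: *Lrmp* in 7 of the 17 and 17 of the 22, *Basp1* in 6 and 5, *Plcg2* in 4 and 9, and *Mki67* in 8 and 4. *Lrmp* was in 20 of the 219 B or plasma-like barcodes without *Rgs13*.

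**Figure D4:**
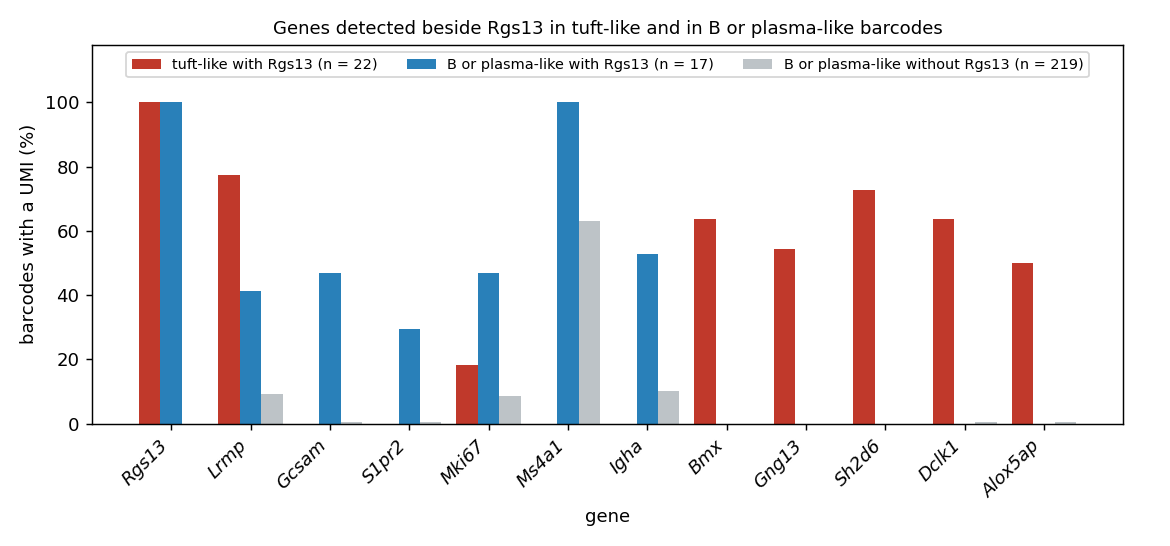
Percentage of barcodes with at least 1 UMI (y axis) of genes (x axis) in tuft-like barcodes with *Rgs13* (n = 22), B or plasma-like barcodes with *Rgs13* (n = 17) and B or plasma-like barcodes without it (n = 219). *Gcsam*, *S1pr2* and *Ms4a1* are at 0 in the tuft-like group, and *Bmx*, *Gng13*, *Sh2d6*, *Dclk1* and *Alox5ap* are at 0 in the B or plasma-like group with *Rgs13*.

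Outside the 9 genes, those whose level followed the number of the 9 genes in a barcode most closely included, in order, *Matk* (r = 0.53), *Bmx* (0.53), *Gng13* (0.46), *Plcb2* (0.41), *Pygl* (0.37), *Strip2* (0.36), *Itpr2* (0.32), *KCTD12* (0.31), *Hpgds* (0.29), *Fyb* (0.29) and *Basp1* (0.27). They are among the first 12 of 11676 genes detected in at least 20 kept barcodes, ranked by Pearson r over 4890 barcodes, and 7 of the 12 were on the list of tuft markers. Among these 12, *Gng13* and *Bmx* were the most restricted, with 87.1 and 86.0% of their UMIs in tuft-like barcodes. *Fyb*, an adaptor of lymphocytes, had 12.9%. The percentages of *Gng13* and *Bmx* cannot be ranked against those of the 9 genes. The 9 genes were left out of the variable genes used for clustering, and *Gng13* and *Bmx* were not. Both are also on the list of tuft markers from which the cluster was named.

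Within the tuft-like class *Rgs13* was uneven. It was found in 22 barcodes, with up to 17 UMIs in one, and missing in 20. *Alox5ap* was found in 11 of the 22 barcodes with *Rgs13* and in 3 of the 20 without, and *Ltc4s* in 9 and 3. *Dclk1* was found in 14 and 11. The barcodes with *Rgs13* were deeper (median 1254 against 817.5 counts) and had a lower mitochondrial share (6.99 against 12.1%), and the part of depth was not tested.

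*Rgs13* also differed in level between the collections. In tuft-like cells it was at 569, 941 and 2693 CPM in the knockout collections and at 750, 0 and 2029 CPM in the flox collections, so that collection 3 was highest in both genotypes. Of its 106 tuft-like UMIs, 58 were in knockout collection 3 and 32 in flox collection 3. A few barcodes gave most of these, with 17, 13, 11 and 8 UMIs in knockout collection 3 and 12, 9 and 7 in flox collection 3. The 0 of flox collection 2 rested on 2 tuft-like barcodes. *Dclk1* was highest in other collections, with 759, 1412 and 836 CPM in knockout and 1286, 453 and 761 CPM in flox tuft-like cells. Collections 3 are the ones with *Xist*, and were also read as the other biological replicate, so the source of the difference cannot be told apart.

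Tuft-like barcodes were 0.663, 0.996 and 1.43% of kept barcodes in the knockout collections and 0.570, 0.423 and 0.864% in the flox collections, with 5, 7 and 14 and with 6, 2 and 8 barcodes. The ranges of the genotypes overlapped. The share was 0.824 and 1.43% in knockout replicates 1 and 2 and 0.524 and 0.864% in flox replicates 1 and 2, higher in knockout at each replicate number. Over biological replicates it was 1.13% ± 0.427 in knockout and 0.694% ± 0.240 in flox (SD, n = 2 each), a difference of 0.431 percentage points with an exact two-sided permutation p of 0.667, where the smallest p this design allows is 0.333. Without knockout collection 3 the difference was 0.130 percentage points. Immune-like barcodes took 8.75, 7.68 and 4.79% of knockout and 10.8, 16.5 and 2.92% of flox collections, so the denominators moved as well. Of epithelial barcodes, those outside the immune-like classes, tuft-like ones were 0.898 and 1.499% in knockout replicates 1 and 2 and 0.600 and 0.890% in flox replicates 1 and 2, which did not overlap. The difference was 0.453 percentage points, and its exact two-sided permutation p of 0.333 is the smallest possible. This denominator was chosen after the values had been seen.

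Within tuft-like cells the 9 genes had a similar summed level in both genotypes, while single genes differed more. The UMIs of the 9 genes together made up 0.606% ± 0.141 of the counts of knockout and 0.579% ± 0.0389 of those of flox tuft-like cells (SD over 2 biological replicates each). For single genes the exact two-sided permutation p was between 0.333 and 1. *Alox5ap* was at 429 and 557 CPM in the knockout replicates and at 347 and 380 CPM in the flox replicates, which did not overlap, and its p of 0.333 in the exact permutation test is the smallest possible. Of the 8 genes with at least 10 UMIs in tuft-like cells it was the 1 that was higher in both knockout replicates, and none was lower in both. Over all 1051 genes with as many UMIs there, 21.6% were higher and 12.4% lower without overlap. *Trpm5* was at 429 and 325 CPM in the knockout and at 1040 and 380 CPM in the flox replicates, which overlapped, and flox replicate 1 rested on 12 UMIs of which 7 were in the 2 tuft-like barcodes of flox collection 2.

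In sums over all kept cells none of the 9 genes passed the test between genotypes. With edgeR's quasi-likelihood test on 2 knockout against 2 flox sums, 8 of the genes could be tested (*Pou2f3* had too few counts) and 0 of the 8 passed an adjusted p of 0.05, beside 1 of 10555 genes in the whole table, or 0.00947%, which was *Mt1*, a metallothionein. At an unadjusted p under 0.05 there were 235 genes (2.23%), 1 of the 8 among them, and DESeq2 called 0 of the 8. Over biological replicates, *Sh2d6* and *Ltc4s* were higher and *Lrmp* was lower in both knockout sums than in both flox sums, 2 and 1 of the 8 genes, while 10.3% of all tested genes were higher and 16.4% lower in this way. In single collections the genotypes overlapped for each of the 8 genes, while 2.47% of tested genes were higher and 4.54% lower in all knockout collections without overlap. Fewer tuft cells and less RNA per tuft cell cannot be told apart in such sums.

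**Figure D5:**
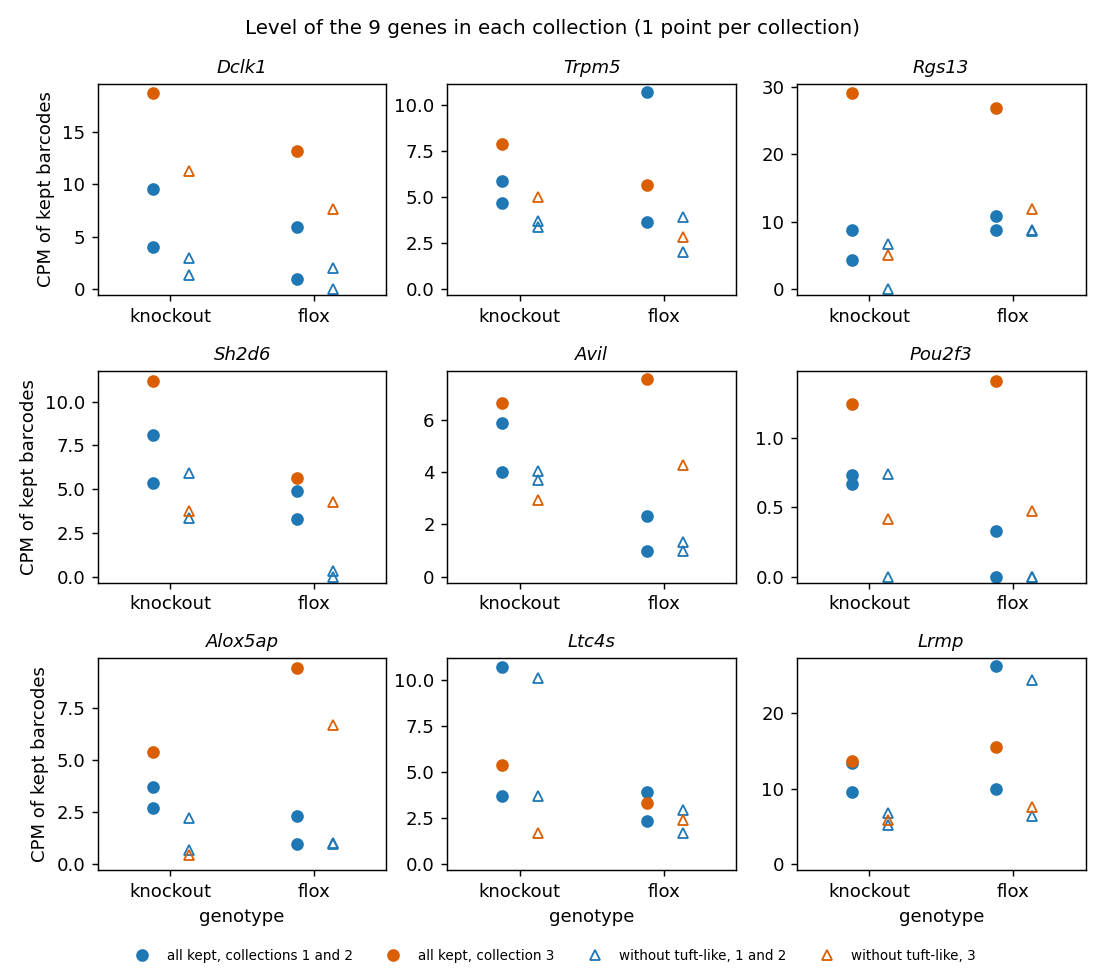
CPM of each of the 9 genes (y axis) in each collection, knockout left of flox, for all kept barcodes (filled circles) and for kept barcodes without the tuft-like ones (open triangles); collections 3 are orange and each point is 1 collection. The collections of the genotypes overlap for every gene, *Rgs13* is highest in collection 3 of both (29.0 and 26.9 CPM), and knockout collection 1 stands high for *Ltc4s* with and without tuft-like barcodes.

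The largest estimates were for *Ltc4s* and *Sh2d6*. *Ltc4s* was at 10.7, 3.67 and 5.39 CPM in the knockout collections and at 2.32, 3.89 and 3.30 CPM in the flox collections. The ranges overlapped, knockout collection 1 was highest, with a log2 fold change of 1.15 (SE 0.53) and an edgeR adjusted p of 0.9996. In knockout collection 1, 12 of the 16 UMIs of *Ltc4s* were in enterocyte-like cells and 1 in tuft-like cells. *Sh2d6* was at 5.36, 8.08 and 11.2 CPM in knockout and at 3.31, 4.86 and 5.66 CPM in flox collections, with a log2 fold change of 0.999 (SE 0.48, edgeR adjusted p = 0.9996). The knockout values were the higher ones except that knockout collection 1 fell below flox collection 3.

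The estimates for the other genes were smaller. *Dclk1* was at 4.02, 9.54 and 18.7 CPM in knockout and at 5.96, 0.972 and 13.2 CPM in flox collections (log2 fold change 0.61, SE 0.53). *Rgs13* was at 8.71, 4.40 and 29.0 CPM in knockout and at 10.9, 8.75 and 26.9 CPM in flox collections, a log2 fold change of 0.013 (SE 0.52) whose sign turned under library-total scaling and under DESeq2. *Lrmp* was at 13.4, 9.54 and 13.7 CPM in knockout and at 9.93, 26.3 and 15.6 CPM in flox collections (log2 fold change -0.19, SE 0.31). Flox collection 2, the highest for *Lrmp*, also had the largest immune-like share. The remaining log2 fold changes were 0.27 for *Trpm5* (SE 0.46), 0.45 for *Avil* (SE 0.62) and -0.25 for *Alox5ap* (SE 0.69), and all 8 had an adjusted p of 0.9996 in edgeR. The median over the 8 genes was 0.36, with 6 of 8 positive, against a median of 0.00 and 50.3% positive over all tested genes. Leaving out libraries moved this: the median was -0.14 with 3 of 8 positive without knockout collection 3, 1.21 with 7 of 8 without flox collection 3, -0.18 with 3 of 8 without flox replicate 1, and 0.039 with 4 of 8 without flox collection 1.

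Leaving out immune-like barcodes changed mainly the 2 shared genes. In the remaining, epithelial barcodes the log2 fold change of *Lrmp* was 0.14 (SE 0.48) and that of *Rgs13* 0.31 (SE 0.76), and again 0 of the 8 genes passed, beside 1 of 10319 genes (0.00969%). At an unadjusted p under 0.05 there were 2 of the 8 and 242 of all genes (2.35%), and DESeq2 called 0 of the 8. Without flox collection 3, which is all of flox replicate 2, *Rgs13* was the 1 gene of the 8 that passed in epithelial cells, with a log2 fold change of 2.42 and an edgeR adjusted p of 0.00616. That fit has 1 flox sum, so its spread came from the 2 knockout sums and the flox sum was assumed to vary like them. Over all alternatives its adjusted p in epithelial cells was between 0.00616 and 0.999998.

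The other genes of the pathway lists gave no call between genotypes in all kept cells. Of the chemosensory list, 7 genes could be tested, 6 of them with a positive log2 fold change and a median of 0.12. Of the eicosanoid synthesis list, 10 could be tested, 2 of them positive, with a median of -0.08. Of 11 tested tuft markers outside the 9 genes, 7 were positive with a median of 0.11. None of these genes passed an adjusted p of 0.05 in edgeR.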

How the data were processed

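Drop-seq libraries of 6 collections were analysed. The deposited tables hold whole-number counts per gene and cell barcode, not normalized. The authors aligned the reads with STAR 2.6 to mm10, per the submitters' processing notes. How barcodes entered the tables and how UMIs were collapsed is not given in the sources used here. The 9 genes and all gene lists were chosen with earlier results of these data known.

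Kept barcodes had at least 300 genes and at most 25% mitochondrial counts. Counts were scaled to 10000 per barcode and log-transformed. A total of 2000 variable genes, without the 9 genes, were reduced to 30 principal components and clustered over 15 nearest neighbours with the Leiden algorithm at resolution 1.0 (leidenalg 0.10.2). A cluster was named when at least 3 markers of a class were enriched 1.5-fold and found in 10% of its cells and either 2 or more of them were in its top 10 or 50% or more of the measured ones were enriched. These thresholds were set with the data in view. It named 13 clusters in 9 classes and left 2, with 788 barcodes, unnamed. Barcodes outside the B or plasma-like and T or NK-like classes are called epithelial, the unnamed clusters included. Doublets were not removed and no caller was run.

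For genotype, counts were summed per biological replicate as read from the sample codes, 2 knockout against 2 flox sums, and tested with edgeR 4.0.16 (quasi-likelihood, TMM, filterByExpr at a minimum count of 10), with Benjamini-Hochberg adjustment over all genes tested. DESeq2 1.42.0 was an alternative. The fit was tested on simulated data. A fit in tuft-like cells was to need at least 10 of them in each sum, and the flox sums had 8 and 8, so exact permutation tests of single values were used. Whether the labelled replicates are separate mice is not stated, so p-values measure only the spread between these samples. The genes named are the 9, those of the lists, and the 12 most like them by the stated correlation, with the exceptions marked in the text as chosen after values were seen. Binomial and Poisson intervals are exact, at 95%, and a count of 0 allows up to 3 counts. Promoter sequences came from RefSeq (GRCm38.p6) and gene positions from GENCODE. Some genes that the naming rules would name are not reported here.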

Additional observations from a re-analysis of the deposited data

Results flagged for a closer look

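Barcodes left out by the filter also held the 9 genes. The 8301 barcodes outside the filter had 130 UMIs of the 9 genes, 14.6% of all, and 6 of these barcodes had at least 3 of the genes, a signal in data that no comparison above used. Of the 6, 4 had under 300 genes with 25% or less mitochondrial counts, and 2 had over 25% mitochondrial counts. None of the 3763 barcodes with under 100 counts had 3 of the genes, and their 13 UMIs came to 55.5 CPM, against 66.5 CPM in kept barcodes. The other barcodes with over 25% mitochondrial counts were at 65.2 CPM. Those left, with under 300 genes and 25% or less mitochondrial counts, were at 163 CPM. *Dclk1* (15 UMIs) and *Lrmp* (21 UMIs) led in the last group and *Pou2f3* had none there.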

How the results depend on the processing

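The same 42 tuft-like barcodes came out at resolution 0.5, at resolution 2.0 and with 30 neighbours. With the 9 genes kept among the variable genes the class had 52 barcodes and 62.8% of the UMIs of the 9 genes. For the class of 42 barcodes, 91.7% of barcodes with at least 3 of the genes were tuft-like after thinning to 500 UMIs. Unthinned, this class held 48.4% of the UMIs and 65.9% of barcodes with at least 3 of the genes. Without each collection in turn these 2 unthinned percentages were 41.4 to 50.1% and 62.1 to 69.2%. The genotype difference in tuft-like share was then 0.130 to 0.601 percentage points. With single collections as samples that difference was 0.410 (exact permutation p = 0.2, smallest possible 0.1). Whole-table calls between genotypes (1 gene in each scope) were 35 in all kept and 29 in epithelial cells without a filter on low counts, 22 in all kept cells of set 1 (knockout collection 1 against flox collections 1 and 2) and 12 in all kept cells of set 2 (knockout collections 2 and 3 against flox collection 3), sets of collections that share barcodes in which 1 arm is a single library assumed to vary like the others (sets, shared-barcode removal, single collections and the epithelial denominator for the share were chosen after seeing the data), and 1 to 34 and 1 to 36 without single collections or biological replicates. The number of the 9 genes called was 0 in each fit of all kept cells and 0 to 1 in epithelial cells in these fits, the 1 being *Rgs13* without flox collection 3, where the single flox sum was assumed to vary like the 2 knockout sums. The genotype difference in the share of tuft-like counts was between -0.072 and 0.127 percentage points, against 0.027.

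Biological replicate numbers matched in deviation (r = 0.32). Of the collection numbers, 3 matched (r = 0.36) and 1 and 2 did not (r = -0.12 and 0.04). The labels give no shared batch or litter, so the numbers were not taken to pair samples. The main fits and the permutation tests therefore make no use of the match between replicate numbers. With the biological replicate as a block 3 genes were called in all kept cells and 1 in epithelial cells, none of the 9. The sign of *Rgs13* in all kept cells (reported as 0.013) turned with DESeq2 (-0.055), library totals (-0.011), the biological replicate block (-0.15), single collections (-0.035), single collections with the number as block (-0.17) or the barcode-sharing set as block (-0.40), within sets 1 (-0.13) and 2 (-0.53), at 200 genes (-0.041) and at 10% mitochondrial counts (-0.093), and without shared barcodes (-0.014). *Trpm5* turned within set 1 (-0.37) and, in epithelial cells, without shared barcodes (-0.052), *Avil* within set 2 (-0.24), and *Lrmp* at 600 genes (0.072). The cause was not tested.

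Leaving out single collections or biological replicates gave log2 fold changes in all kept cells of -0.27 to 1.45 for *Dclk1*, -0.24 to 0.56 for *Trpm5*, -1.35 to 0.79 for *Rgs13*, 0.61 to 1.31 for *Sh2d6*, -0.37 to 1.57 for *Avil*, -1.13 to 1.13 for *Alox5ap*, 0.86 to 1.44 for *Ltc4s* and -0.67 to 0.052 for *Lrmp*. In epithelial cells they were -0.24 to 1.38, -0.30 to 0.52, -1.22 to 2.42, 0.63 to 1.29, -0.36 to 1.54, -1.12 to 1.28, 0.81 to 1.37 and -0.56 to 1.02 in the same order. The alternatives planned for a fit in tuft-like cells (DESeq2, other scaling, no filter, blocks) were not run, since that fit was not made. *Pou2f3*, with 9 UMIs, was under the count filter.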
